A study of Mus musculus with 14 samples.

Results

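The 33 genes described here are interferon response genes: transcription factors, sensors of viral nucleic acid, antiviral effectors, chemokines and other genes that interferons switch on. They were chosen by name, and all 33 were found among the 23284 genes of every count file and passed the filter on low counts. Their RNA was measured by poly(A) RNA sequencing in 14 primary small cell lung cancers of mice, 7 labelled Rb1/Trp53/Crebbp (RPC) and 7 labelled Rb1/Trp53 (RP). This cancer is a carcinoma of neuroendocrine cells. By the labels, Rb1 and Trp53 are deleted in both groups, and in RPC tumours so is Crebbp, which encodes a histone acetyltransferase and transcriptional coactivator. The Cre driver, the deleted exons, the strain, age and sex are not in the labels, nor is it said whether every tumour was taken from a separate mouse. P-values therefore measure only the spread between these samples. The comparison of genotypes asks whether the response genes differ in tumours with Crebbp deleted, and a second comparison asks how their level goes with Ctss, the macrophage protease cathepsin S, used as a measure of stromal content.

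Type I and type III interferons bind cell surface receptors whose Janus kinases activate transcription factors of the STAT family. STAT2 and IRF9 are subunits of the complex ISGF3, which binds the interferon-stimulated response element (ISRE) in the promoters of its target genes. Many targets of interferon-gamma carry another element, the gamma-activated site (GAS). In the lung the response can be mounted by epithelial and tumour cells as well as by macrophages and lymphocytes, and the chemokines among its targets recruit T and NK cells.

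The ISRE core, searched on both strands as GAAA followed by any 2 bases and a further GAAA, lay in the promoter window of 13 of the 26 members that have an entry among RefSeq promoters (build GRCm38.p6), or 50%. The window ran from 250 bases before to 50 bases after the transcription start, and 3.99% of 27025 genes held the core in a window of that length. The GAS core, TTCNNNGAA, which reads the same on both strands, lay in 6 of the 26 (23.1%), against 9.55% of genes, and no match was shared between the motifs in the sequences printed here. Of the 6 promoters chosen to show both motifs across the roles described below, the 250 bases before the start are given 5′ to 3′ on the strand of the gene, with motif matches in capitals. They lie at chr4:156200819-156201068 (Isg15, minus strand), chr19:34640639-34640888 (Ifit1, plus strand), chr10:128270248-128270497 (Stat2, plus strand), chr5:92348890-92349139 (Cxcl10, minus strand), chr3:142620413-142620662 (Gbp2, plus strand) and chr11:53769764-53770013 (Irf1, plus strand).
Isg15: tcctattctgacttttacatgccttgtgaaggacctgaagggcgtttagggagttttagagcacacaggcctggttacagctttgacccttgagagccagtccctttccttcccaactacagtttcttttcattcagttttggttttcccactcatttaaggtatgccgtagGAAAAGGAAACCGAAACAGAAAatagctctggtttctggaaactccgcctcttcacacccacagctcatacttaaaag
Ifit1: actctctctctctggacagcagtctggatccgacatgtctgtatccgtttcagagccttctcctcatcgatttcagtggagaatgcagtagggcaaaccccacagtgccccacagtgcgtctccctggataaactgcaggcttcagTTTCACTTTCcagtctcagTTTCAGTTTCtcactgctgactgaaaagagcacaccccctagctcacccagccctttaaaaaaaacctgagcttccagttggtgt
Stat2: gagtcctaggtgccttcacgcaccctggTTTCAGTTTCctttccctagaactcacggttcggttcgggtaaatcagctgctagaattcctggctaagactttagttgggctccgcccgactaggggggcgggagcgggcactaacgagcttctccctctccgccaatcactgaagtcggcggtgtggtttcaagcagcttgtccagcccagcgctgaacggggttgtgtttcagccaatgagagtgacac
Cxcl10: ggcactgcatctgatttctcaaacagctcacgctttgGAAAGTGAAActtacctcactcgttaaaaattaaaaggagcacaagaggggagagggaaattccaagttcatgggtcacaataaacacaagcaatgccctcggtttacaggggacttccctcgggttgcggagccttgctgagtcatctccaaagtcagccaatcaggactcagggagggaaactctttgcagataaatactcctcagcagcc
Gbp2: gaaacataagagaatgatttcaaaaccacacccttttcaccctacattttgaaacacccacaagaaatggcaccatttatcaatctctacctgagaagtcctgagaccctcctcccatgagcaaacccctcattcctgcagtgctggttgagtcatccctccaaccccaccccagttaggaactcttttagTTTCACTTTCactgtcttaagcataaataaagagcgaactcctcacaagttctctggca
Irf1: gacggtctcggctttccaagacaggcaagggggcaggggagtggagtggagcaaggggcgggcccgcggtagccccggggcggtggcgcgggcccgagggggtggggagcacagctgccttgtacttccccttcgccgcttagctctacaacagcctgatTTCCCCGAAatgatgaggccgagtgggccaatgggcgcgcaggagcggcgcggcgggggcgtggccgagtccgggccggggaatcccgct
Isg15 held 3 ISRE matches that overlap in a single run starting 78 bases before the start, and Ifit1 held 2 separate matches starting 104 and 85 bases before it. In Stat2, Cxcl10 and Gbp2 the capitals mark 1 ISRE match each, which starts 222, 213 and 59 bases before the start, and in Irf1 they mark 1 GAS match, which starts 90 bases before it. A match is a run of letters and not a measured binding site.

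The libraries held 10060969 to 24052799 counts in genes in RPC tumours and 10965714 to 23678648 in RP tumours, and levels are given as CPM, the count scaled to the size of the library, which are comparable between tumours for a gene but not between genes of different length. Crebbp had 57.9, 64.7 and 70.0 CPM in RPC tumours and 59.4, 69.9 and 97.2 CPM in RP tumours (lowest, median and highest). Rb1 had 90.5, 133 and 178 CPM in RPC tumours and 74.5, 154 and 237 CPM in RP tumours, and Trp53 had 12.4, 20.2 and 34.4 CPM in RPC tumours and 20.4, 26.9 and 34.3 CPM in RP tumours. With the deleted exons unknown, counts over whole genes do not check the deletions, which rest on the labels. RPC tumours 3, 5 and 6 stood apart: Ctss had 0.105, 0 and 0.0894 CPM there, against 63.1 to 272 CPM in RPC tumours 1, 2, 4 and 7 and 82.1 to 239 CPM in RP tumours. The summed level of 15 macrophage and monocyte markers, Ctss included, was 6.18 to 9.28 CPM in those 3 libraries, with Emr1 at 0 counts in all 3, against 572 to 2276 CPM in the other 4 RPC tumours and 644 to 1817 CPM in RP tumours. Without Ctss the sum was 6.08 to 9.28 CPM in the 3 and 509 to 2004 CPM in the other 11. Summed levels of fibroblast markers (4.40 to 126 CPM in the 3, 236 to 870 CPM in the other 11) and endothelial markers (15 to 129 CPM in the 3, 355 to 2401 CPM in the other 11) were lower in the 3 as well, with 5 of 7 markers of each list below the other 11 libraries in all 3. Single markers of both lists went the other way: RPC 5 was the highest of the 14 libraries for Pdgfra (117 CPM, against at most 58.6 CPM in the other 11), Lum (8.03 against 6.22 CPM) and Kdr (82.9 against 33.1 CPM), which are named here after their values were seen. T and NK cell markers summed to 0.597 to 0.733 CPM in the 3 and 7.38 to 77.2 CPM in the other 11, B and dendritic cell markers to 2.44 to 3.04 CPM in the 3 and 16 to 265 CPM in the other 11, and lung epithelial markers to 24.2 to 28.2 CPM in the 3 and 76.6 to 3773 CPM in the other 11. The neuroendocrine tumour markers summed to 4536 to 6825 CPM in RPC tumours and 7302 to 12753 CPM in RP tumours, with no overlap between genotypes. EdgeR called none of these 10 markers between genotypes over all 14 libraries. Their log2 fold changes ran from -2.11 (Calca) to 0.47 (Ncam1), with Uchl1 (0.20) and Insm1 (0.06) also positive and the rest negative. Epcam, named after its values were seen, had 4.07 CPM in RPC 5, against 219 to 1069 CPM in the other 11. In bulk tissue, fewer cells of a type and less RNA per cell cannot be told apart.

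Most of the 33 members were low together in RPC tumours 3, 5 and 6 and varied widely among the rest. Taking for each library the median over members of log2 CPM after subtracting each gene's own median, RPC tumours 3, 5 and 6 lay at -2.92, -3.45 and -3.28. RPC tumours 1, 2, 4 and 7 lay at -0.75, 1.21, -0.93 and 0.60, and RP tumours 1 to 7 at -0.03, 1.48, -0.61, 0.61, -0.01, 0.66 and 0.88. Besides the 3 low libraries, RPC tumours 1 and 4 lay below every RP tumour, and RPC 2 was second among the 14. RP 2 was the highest library for 22 of the 33 members, while it was the highest for 6.5% of all tested genes. RPC 2 was the highest for 6 members and RP 7 for 3, which were Gbp2, Cxcl9 and Sp100. The macrophage and monocyte markers summed to 993 CPM in RP 2, against 2276 CPM in RPC 2 and 1817 CPM in RP 7. Endothelial markers summed to 1274 CPM in RP 2, against 991 CPM in RPC 2 and 932 CPM in RP 7. Fibroblast markers summed to 236 CPM in RP 2, against 581 CPM in RPC 2 and 696 CPM in RP 7. RP 7 had the highest sums of T and NK cell markers (77.2 CPM) and of B and dendritic cell markers (265 CPM). The part of these cell types in the members' levels was not tested here.

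**Figure D1:**
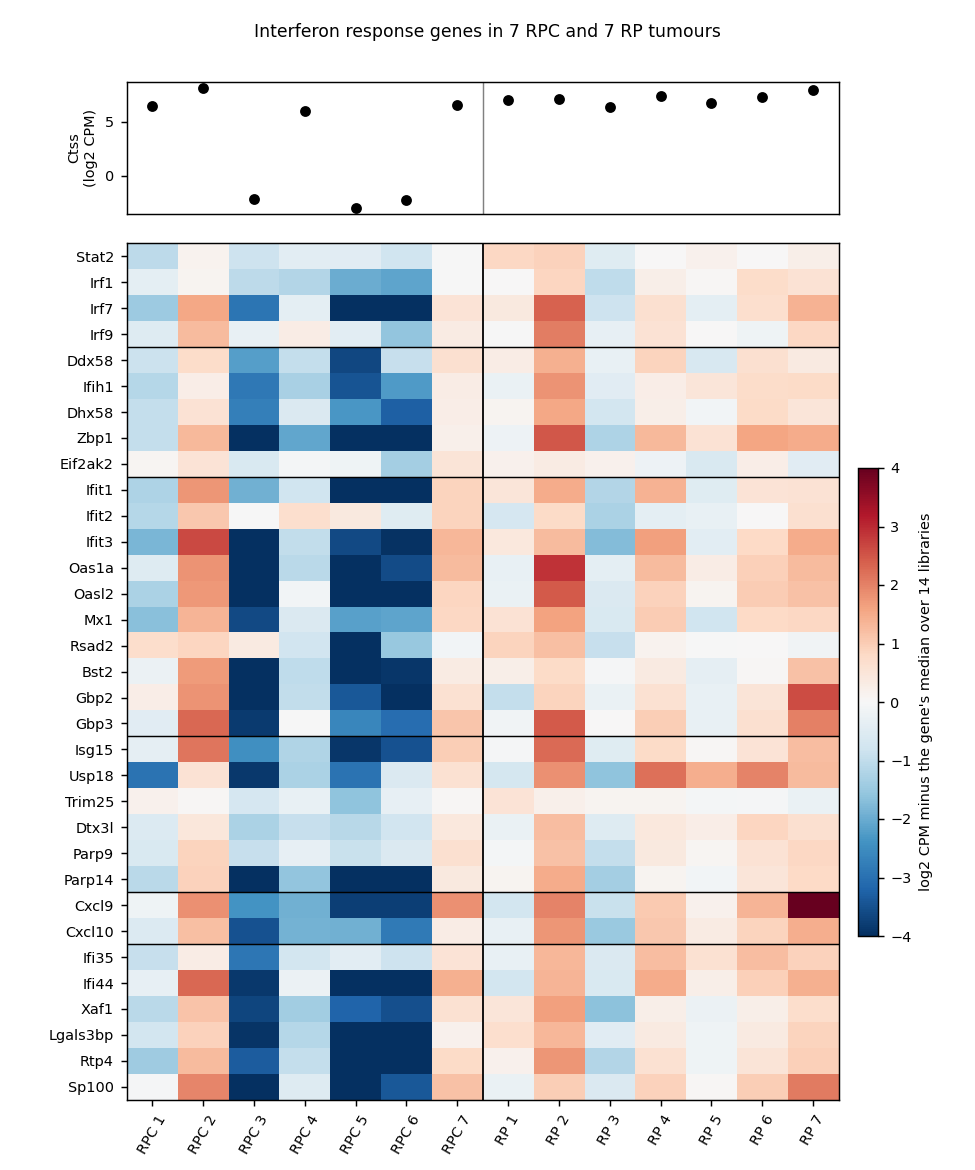
Log2 CPM of each of the 33 members minus the gene's median over 14 libraries, as colour from -4 to 4 (values beyond are drawn at the limit), with members grouped by role in rows and tumours in columns, and log2 CPM of Ctss above. RPC tumours 3, 5 and 6, with Ctss at or below 0.105 CPM, form the darkest columns, and RP 2 and RPC 2 have the highest medians (1.48 and 1.21).

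Over all 14 libraries, 32 of 33 members had a negative log2 fold change of RPC over RP, and the exception was Ifit2, at 0.38. The median over members was -0.98, beside 0.00 over the 14804 genes tested, and values ran from -2.25 to 0.38. None of the 33 was called at an adjusted p under 0.05 by edgeR's quasi-likelihood test with Benjamini-Hochberg adjustment, where 2.21% of all genes were called. At an unadjusted p under 0.05, 6 members were lower in RPC tumours (18.2%), against 11.1% of all genes. They were Stat2, Irf1, Ifih1, Ifi35, Usp18 and Dtx3l. DESeq2, which called 5.01% of all genes lower, called 3 members lower: Stat2 (adjusted p = 0.0429), Ifih1 (0.0456) and Usp18 (0.0343). In no member did the genotypes separate without overlap, as they did in 1.15% of tested genes. A p above the threshold does not show that the genotypes are alike. Single libraries, above all RPC 2 and RP 2, moved several of the fold changes described below, none of them called. The log2 fold change of Isg15 was -1.70 without RPC 2 and -0.29 without RP 2, that of Irf7 was -2.05 and -0.78, and that of Irf9 was -0.90 and -0.13. Ifit1 was at -1.58 without RPC 2, Zbp1 at -2.90, Cxcl10 at -2.04 and Cxcl9 at -2.84, and Trim25 was at -0.25 without RPC 5.

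The 4 transcription factors were each lower on average in RPC tumours, and Stat2 and Irf1 had the smallest p. Stat2, the ISGF3 subunit whose promoter window is printed above, had 32.2, 48.7 and 73.6 CPM in RPC tumours and 48.0, 75.8 and 128 CPM in RP tumours (lowest, median and highest). All 7 RPC tumours lay below the RP median and 4 RP tumours above every RPC tumour, and the log2 fold change was -0.76 (SE 0.24, edgeR's adjusted p = 0.0983). RPC tumours 3, 5 and 6 had 37.4, 48.7 and 38.1 CPM of Stat2, within the range of the other 11, and the lowest library was RPC 1. Irf1, a transcription factor induced by interferon-gamma, had 16.1, 33.7 and 76.4 CPM in RPC tumours and 34.6, 82.8 and 128 CPM in RP tumours. Its log2 fold change was -1.03 (SE 0.37, edgeR's adjusted p = 0.136), again with every RPC tumour below the RP median. Irf7, which drives the production of type I interferon, had 1.19, 10.4 and 83.5 CPM in RPC tumours and 16.1, 44.3 and 148 CPM in RP tumours. Here RPC tumours 3, 5 and 6 were the lowest of all, at 1.19 to 3.67 CPM, while RPC 2 was above 6 of the 7 RP tumours, and the log2 fold change was -1.24 (SE 0.82, edgeR's adjusted p = 0.398). Irf9, the DNA-binding subunit of ISGF3, had 10.9, 26.7 and 78.3 CPM in RPC tumours and 25.6, 33.2 and 135 CPM in RP tumours, with a log2 fold change of -0.57 (SE 0.44, edgeR's adjusted p = 0.474).

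Among the 5 sensors of viral nucleic acid, the log2 fold changes ran from -1.94 for Zbp1 to -0.04 for Eif2ak2. Ifih1, which encodes the double-stranded RNA sensor MDA5, had 2.55, 11.8 and 35.7 CPM in RPC tumours and 21.3, 41.1 and 103 CPM in RP tumours. Each RPC tumour was below the RP median, 5 of 7 lay below the lowest RP tumour, and the log2 fold change was -1.58 (SE 0.57, edgeR's adjusted p = 0.133). Ddx58, which encodes RIG-I, had 1.95, 13.7 and 42.6 CPM in RPC tumours and 16.4, 33.4 and 68.9 CPM in RP tumours, at a log2 fold change of -0.99 (SE 0.55, edgeR's adjusted p = 0.313). Dhx58, which encodes LGP2, a regulator of both of these sensors, had 1.25, 6.85 and 20 CPM in RPC tumours and 7.88, 15.7 and 39.1 CPM in RP tumours (log2 fold change -1.18, SE 0.58, edgeR's adjusted p = 0.253). RPC tumours 2 and 7 lay within the RP range for all 3 of these genes. Zbp1, a sensor of left-handed nucleic acid, had 0, 2.61 and 28.3 CPM in RPC tumours and 4.81, 28.4 and 64.9 CPM in RP tumours (log2 fold change -1.94, SE 1.0, edgeR's adjusted p = 0.303). RPC 6 had no Zbp1 count, at a depth where 3 counts are 0.268 CPM, and RPC tumours 3 and 5 had 0.314 and 0.0543 CPM. Eif2ak2, the kinase PKR that halts translation on sensing double-stranded RNA, had 18.1, 44.3 and 67.5 CPM in RPC tumours and 30.6, 52.4 and 57.7 CPM in RP tumours, so that the RPC range enclosed the RP range.

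The 6 genes of ISG15 conjugation, ubiquitin and ADP-ribose transfer differed in how far they followed the stroma-poor tumours. Usp18, the protease that removes ISG15 and restrains the type I interferon receptor, had 1.89, 12 and 44.9 CPM in RPC tumours and 9.54, 80.8 and 135 CPM in RP tumours. Every RPC tumour was below the RP median, 5 of 7 RP tumours lay above every RPC tumour, and the log2 fold change was -2.05 (SE 0.74, edgeR's adjusted p = 0.137). The lowest RP values, 9.54 CPM in RP 3 and 17.9 CPM in RP 1, overlapped the RPC range. Isg15, the ubiquitin-like modifier with the overlapping ISRE matches, had 0.380, 3.12 and 33.4 CPM in RPC tumours and 5.23, 10.8 and 36.1 CPM in RP tumours (log2 fold change -0.72, SE 0.84, edgeR's adjusted p = 0.637). RPC 2 was second only to RP 2 for Isg15, and 4 RPC tumours lay below every RP tumour. Dtx3l, a ubiquitin ligase that works as a pair with Parp9, had 12.9, 18.4 and 42.7 CPM in RPC tumours and 21.7, 42.1 and 73.6 CPM in RP tumours (log2 fold change -0.87, SE 0.34, edgeR's adjusted p = 0.162). Its partner Parp9 had 15, 19.2 and 52.9 CPM in RPC tumours and 14.8, 37.2 and 65.1 CPM in RP tumours. Parp14, an ADP-ribosyltransferase, had 0.626 to 0.760 CPM in RPC tumours 3, 5 and 6, against 11.6 to 65.7 CPM in the other RPC tumours and 13.5 to 97.6 CPM in RP tumours. Parp9 and Dtx3l were thus at 12.9 CPM or more in every library, and Parp14 was under 1 CPM in 3 of them. Trim25, the ubiquitin ligase that acts on RIG-I, had 46.3, 115 and 159 CPM in RPC tumours and 116, 151 and 207 CPM in RP tumours, at a log2 fold change of -0.38 (SE 0.22, edgeR's adjusted p = 0.340).

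**Figure D2:**
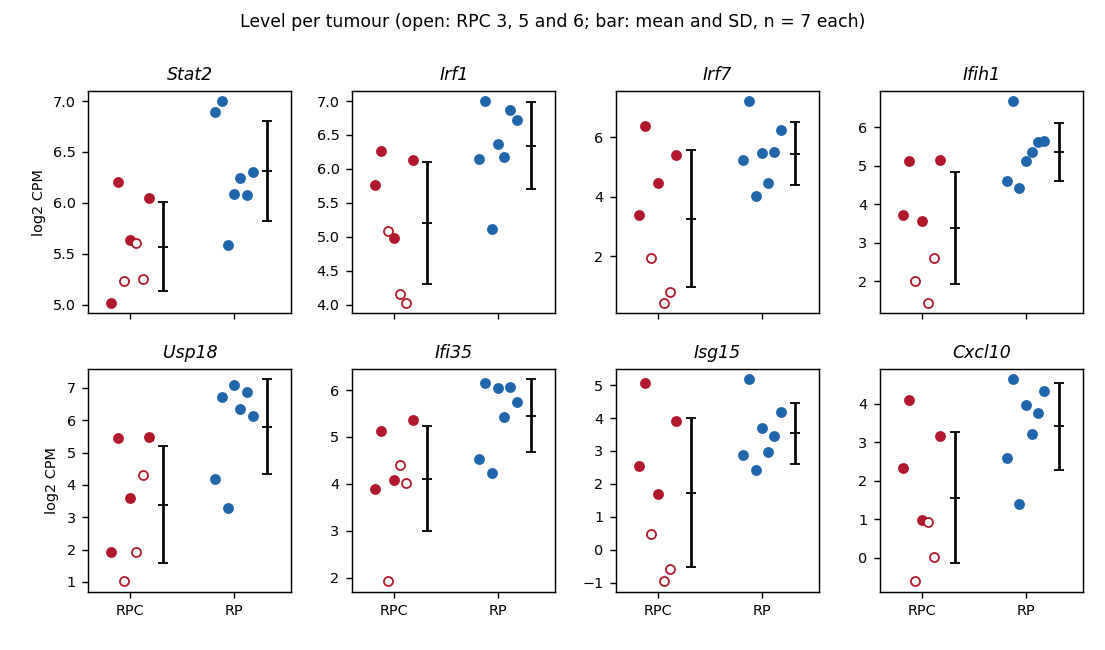
Log2 CPM (prior count of 2) of 8 members in each tumour, RPC in red and RP in blue, with RPC tumours 3, 5 and 6 as open circles and bars for mean and SD (n = 7 each). The open circles are the lowest points for Irf7, Ifih1, Isg15 and Cxcl10 and mix with the other RPC tumours for Stat2.

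Of the 10 antiviral effectors, 9 had a negative log2 fold change, and edgeR found none lower at an unadjusted p under 0.05. Ifit1, which binds foreign RNA and has a pair of ISRE matches in the window printed above, had 0.0894, 5.40 and 44.8 CPM in RPC tumours and 5.64, 18.9 and 36.6 CPM in RP tumours (log2 fold change -0.73, SE 0.88, edgeR's adjusted p = 0.650). RPC 2 was the highest library and RPC 6 the lowest. Ifit3, which pairs with Ifit1, had 0.210 to 0.380 CPM in RPC tumours 3, 5 and 6, 1.63 to 38.8 CPM in the other RPC tumours and 1.74 to 19.3 CPM in RP tumours. Ifit2, in contrast, kept 28.5, 38.1 and 20.6 CPM in RPC tumours 3, 5 and 6, with 13 to 60.9 CPM in the other RPC tumours and 12 to 49.4 CPM in RP tumours. Rsad2, which encodes the antiviral enzyme viperin, had 29.5, 0.814 and 8.04 CPM in RPC tumours 3, 5 and 6, 13.4 to 41.9 CPM in the other RPC tumours and 12.2 to 53.2 CPM in RP tumours. For the remaining 8 effectors, RPC tumours 3, 5 and 6 all lay below the lowest of the other 11 libraries. Bst2, or tetherin, which holds budding virus at the cell surface, had 0.163 to 1.61 CPM in the 3 and 12.6 to 84.3 CPM in the other 11. Oasl2, a member of the oligoadenylate synthetase family, had 0.0543 to 0.943 CPM in the 3 and 7.86 to 105 CPM in the other 11. Mx1, a dynamin-like GTPase that blocks influenza virus, had 0.419 to 1.43 CPM in the 3 and 1.98 to 20.7 CPM in the other 11. Oas1a, Gbp2 and Gbp3 followed the same order, at no more than 1.14 CPM in the 3 and at least 2.11 CPM in the other 11. Gbp2, a guanylate-binding GTPase with an ISRE match in the printed window, reached 43.4 CPM in RP 7, above 24.5 CPM in RPC 2. Ifit3, Oas1a, Gbp2, Gbp3 and Sp100 have closely similar copies in the mouse genome, and since counting used reads of unique position, their levels are uncertain.

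Both chemokines that attract T and NK cells had wide ranges. Cxcl10, with its ISRE match far upstream in the window, had 0.524, 1.85 and 16.9 CPM in RPC tumours and 2.49, 13.4 and 24.7 CPM in RP tumours (log2 fold change -1.35, SE 0.71, edgeR's adjusted p = 0.288). Cxcl9, induced mainly by interferon-gamma, had 0, 0.337 and 6.27 CPM in RPC tumours and 0.830, 3.55 and 49.7 CPM in RP tumours (log2 fold change -2.25, SE 1.2, edgeR's adjusted p = 0.311). The value of 49.7 CPM came from RP 7, the library with the highest sum of T and NK cell markers, and the next highest RP tumour had 6.94 CPM. Without RP 7 the log2 fold change of Cxcl9 was -0.59. RPC tumours 5 and 6 had no Cxcl9 count and RPC 3 had 0.210 CPM.

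Of the 6 remaining members, Ifi35 had the smallest p. Ifi35, a leucine zipper protein that partners with Nmi, had 3.67, 16.9 and 41.1 CPM in RPC tumours and 18.8, 53.3 and 70.6 CPM in RP tumours (log2 fold change -1.20, SE 0.44, edgeR's adjusted p = 0.137). Every RPC tumour was below the RP median, and RPC tumours 5 and 6 were within the range of the other 11. The other five, Ifi44, Xaf1, Lgals3bp, Rtp4 and Sp100, had RPC tumours 3, 5 and 6 below all other libraries. Lgals3bp, a secreted glycoprotein that binds galectins, had 1.16 to 6.81 CPM in the 3, 47.8 to 199 CPM in the other RPC tumours and 77.2 to 268 CPM in RP tumours. Ifi44 had 0 to 0.419 CPM in the 3 and 4.77 to 39.7 CPM in the other 11. Xaf1, a partner of the apoptosis inhibitor XIAP, had 2.20 to 3.15 CPM in the 3 and 9.46 to 94.0 CPM in the other 11.

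In all, 22 of 33 members had RPC tumours 3, 5 and 6 all below the lowest of the other 11 libraries, while 9.19% of tested genes had that order. By role these were 1 of 4 transcription factors, 3 of 5 sensors, 3 of 6 genes of the ISG15, ubiquitin and ADP-ribose group, 8 of 10 effectors, both chemokines and 5 of 6 other members. Stat2, Ifit2 and Parp9 had all 3 tumours within the range of the other 11, and 8 members had 1 or 2 of them within it (Irf1, Irf9, Ddx58, Eif2ak2, Rsad2, Usp18, Dtx3l and Ifi35). Zbp1, Oas1a and Cxcl9 had at most 3 counts in each of the 3 libraries, and 7 members had so few in at least 2 of them. In the other 11 libraries no member had 3 counts or fewer. The 3 libraries were picked out by their near-absent Ctss and not by these genes, and the summed marker levels of the other cell types in them, with the exceptions in RPC 5, are given above.

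Without RPC tumours 3, 5 and 6, the log2 fold change was smaller in size for all members except Ifit2, Ifit3 and Eif2ak2. It went from 0.38 to 0.61 for Ifit2, from -0.37 to 0.42 for Ifit3 and from -0.04 to 0.29 for Eif2ak2. The libraries left out were the lowest for most members, so leaving them out was bound to raise the RPC mean of those members. The smaller differences are therefore a description and not a separate test. Across 4 RPC and 7 RP tumours, 25 members had a negative and 8 a positive log2 fold change, with a median of -0.30 beside -0.01 over all genes. EdgeR called none (0.0716% of genes were called) and found none lower at an unadjusted p under 0.05, where 7.05% of genes were. The most negative values were -1.55 for Usp18 (SE 0.77, edgeR's adjusted p = 0.460), -1.46 for Cxcl9 (SE 1.2, 0.685) and -1.14 for Zbp1 (SE 0.71, 0.566), and the most positive was 0.61 for Ifit2. Stat2 was at -0.59 (SE 0.29, 0.457), Ifih1 at -0.95 (SE 0.46, 0.443), and Isg15 and Ifit1 at 0.03 and 0.01. A term for log2 CPM of Ctss in the fit over all 14 libraries left 22 members negative and 11 positive, with a median of -0.21, and none called, where 0.027% of genes were. In that fit no member was lower at an unadjusted p under 0.05 either, where 5.53% of genes were. Usp18 was at -1.44 and Ifih1 at -0.86, while Isg15 and Ifit1 were at 0.07 and 0.09. RPC tumours 3, 5 and 6 are the libraries with near-absent Ctss, so over all 14 libraries the Ctss term largely marks them and overlaps with genotype. Values from the fit with that term are likewise a description and not a separate test. The neuroendocrine marker sum, which did not overlap between genotypes, was not part of any fit, and its part in the differences was not tested.

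**Figure D3:**
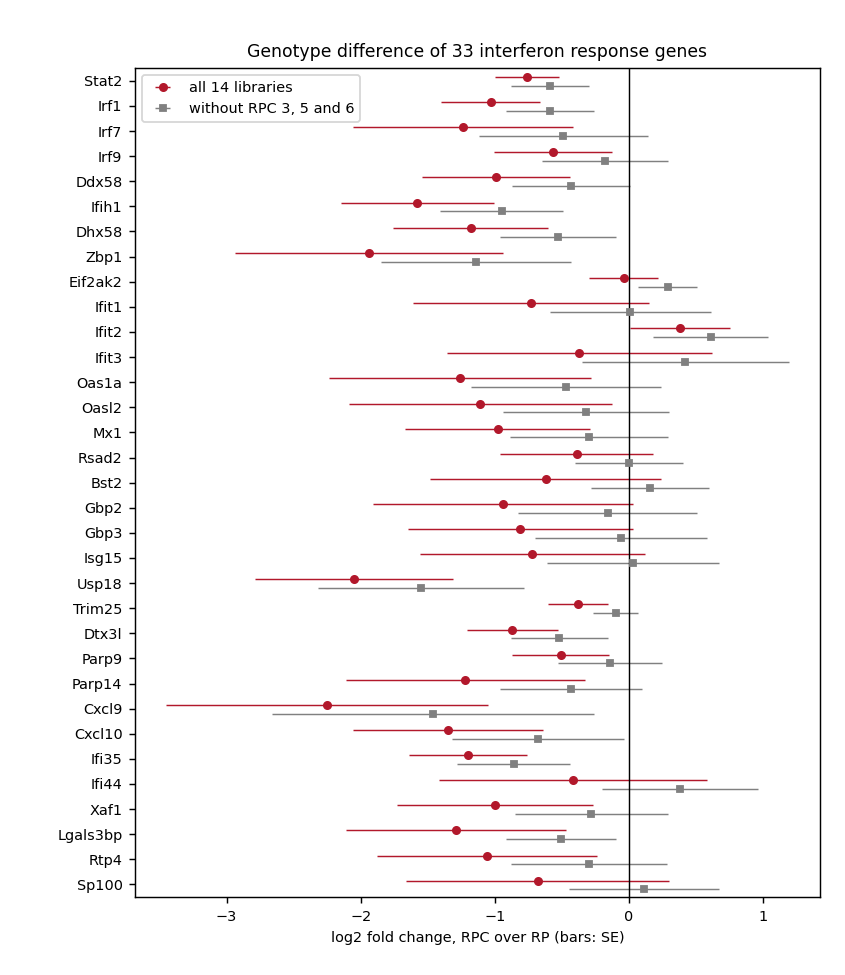
Log2 fold change of RPC over RP with its SE for the 33 members in edgeR, in all 14 libraries (red circles) and without RPC tumours 3, 5 and 6 (grey squares). The red points run from -2.25 to 0.38 with 32 of 33 below 0, and the grey points lie closer to 0 for most members.

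Within the 11 libraries with stroma, the members went with Ctss. With genotype in the model, 32 of 33 members had a positive slope on log2 CPM of Ctss, and the exception was Trim25, at -0.03. The median slope was 0.98 log2 units per log2 unit of Ctss, beside -0.05 over 15357 genes other than Ctss. At an unadjusted p under 0.05, 20 members had a positive slope (60.6%), against 6.34% of genes. EdgeR called none of them after adjustment over all genes, where 0.00651% of genes were called. DESeq2 called 9 members positive, where 2.09% of genes were: Bst2, Sp100, Cxcl9, Gbp2, Ifit3, Ifi44, Cxcl10, Lgals3bp and Zbp1. Whether Ctss itself rises with interferon was not tested, so a slope on it cannot separate stromal content from a shared response. Markers of stroma differed in their own slopes in the edgeR fit, so that Ctss does not stand for the amount of every cell type. Slopes ran from -0.32 to 0.86 over fibroblast markers, -0.06 to 1.33 over endothelial markers and 0.09 to 1.51 over macrophage markers other than Ctss. They ran from 0.51 to 2.47 over the T and NK cell markers tested.

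Cxcl9 had a slope of 2.78 (SE 0.73, edgeR's adjusted p = 0.193), which was 1.45 without RP 7 and 3.96 without RPC 2, and Cxcl10 had 1.34 (SE 0.40, 0.271). Among effectors Bst2 had 1.05 (SE 0.18), with the lowest edgeR adjusted p of the 33 at 0.0992, followed by Gbp2 at 1.52 (SE 0.32, 0.141) and Ifit3 at 1.79 (SE 0.46, 0.176). Sp100, a constituent of nuclear bodies, had 1.33 (SE 0.28, edgeR's adjusted p = 0.141), Ifi44 had 1.23 (SE 0.34, 0.212) and Lgals3bp 0.84 (SE 0.24, 0.223). Isg15 had 1.27 (SE 0.42, 0.326), Ifit1 1.21 (SE 0.40, 0.333), Gbp3 1.19 (SE 0.39, 0.329) and Irf7 1.07 (SE 0.42, 0.454). The other transcription factors had lower slopes: Irf1 had 0.60 (SE 0.24, edgeR's adjusted p = 0.452), though 1.07 without RPC 2, Irf9 0.58 (SE 0.35, 0.659) and Stat2 0.27 (SE 0.23, 0.756). The median slope was 2.06 over the chemokines, 1.07 over effectors, 1.04 over the 6 other members, 0.83 over the ISG15 group, 0.60 over sensors and 0.59 over transcription factors, without a test of the difference between roles.

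The count of 20 members depended on single libraries and on the measure. It was 9 without RPC 2, the library with the most Ctss, 13 without RPC 4 and 13 without RP 3, where 5.67%, 5.19% and 4.9% of genes had a positive slope at that p. Median slopes of the members were then 1.19, 0.87 and 0.82. With the mean log2 CPM of the 15 macrophage and monocyte markers, Ctss among them, in place of Ctss alone it was 4, where 4.74% of genes were positive at that p, with 31 of 33 slopes positive and a median of 0.53. With Ctss left out of that mean, a choice made after seeing the data, it was also 4, with a median of 0.48. Over all 14 libraries edgeR called 23 members positive, where 8.31% of genes were called, and slopes over the 33 ran from 0.05 to 0.74. That fit rests on 2 clusters of libraries, the 3 without Ctss and the 11 with it, and its slopes span the empty range between them.

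**Figure D4:**
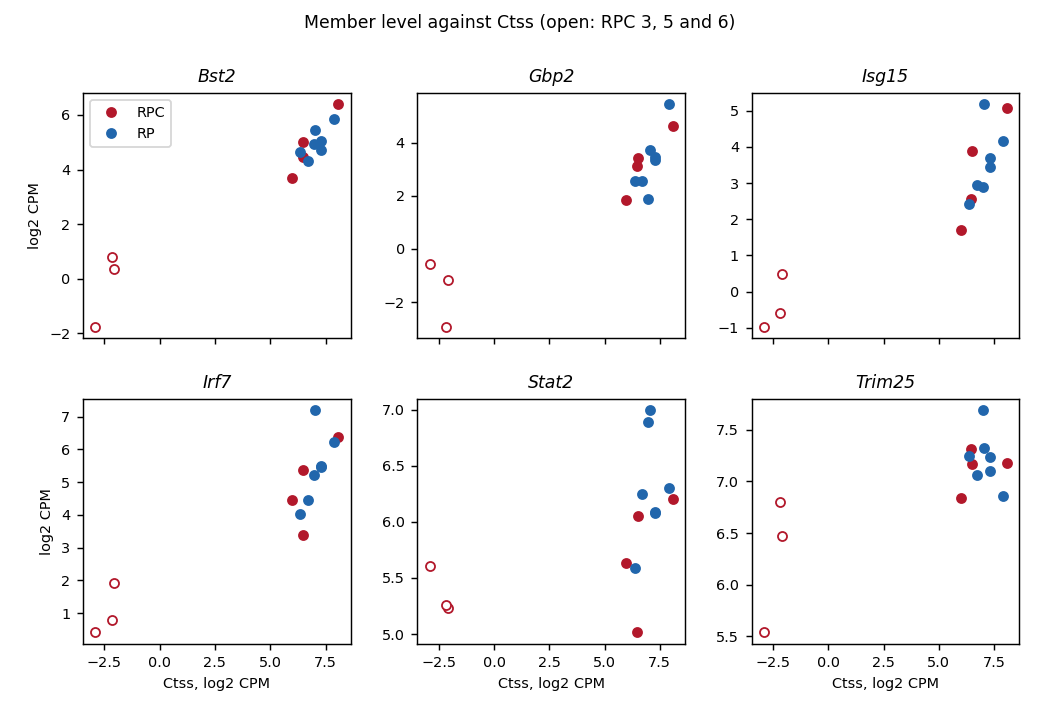
Log2 CPM of 6 members against log2 CPM of Ctss in 14 tumours, RPC in red and RP in blue, with RPC tumours 3, 5 and 6 as open circles at the left. Bst2 and Gbp2 climb within the 11 libraries at the right (slopes 1.05 and 1.52), while Stat2 (0.27) and Trim25 (-0.03) are nearly flat there.

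Other genes of the pathway were read from lists of 76 genes, of which 74 were in the files and 63 were tested; 60 of the 63 had a negative log2 fold change. EdgeR called 3 of them lower in RPC tumours (1.12% of all genes were called lower) and none higher. Tor3a, an interferon-induced ATPase of the endoplasmic reticulum, had 9.95, 20.6 and 39.2 CPM in RPC tumours and 31.3, 57.7 and 104 CPM in RP tumours (log2 fold change -1.48, SE 0.33, edgeR's adjusted p = 0.0364). Cmpk2, a mitochondrial nucleotide kinase, had 34.0, 54.7 and 93.8 CPM in RPC tumours and 60.8, 120.1 and 139 CPM in RP tumours (-0.93, SE 0.21, 0.0388). Socs3, a feedback inhibitor of cytokine receptors, had 22.5, 42.1 and 80.2 CPM in RPC tumours and 42.9, 127 and 203 CPM in RP tumours (-1.34, SE 0.32, 0.0431). For Cmpk2 the RPC tumours 3, 5 and 6 had 50.7 to 64.5 CPM, in the middle of the RPC range, and RP 3 was the sole RP tumour within that range. Without RPC tumours 3, 5 and 6 the log2 fold changes were -1.20, -0.88 and -0.99 and no longer called (edgeR's adjusted p = 0.206, 0.223 and 0.250), nor were they with the Ctss term (0.297, 0.276 and 0.324). As said above, that term largely marks the same 3 libraries. In the 11 libraries without RPC tumours 3, 5 and 6, 52 of the 63 pathway genes had a negative log2 fold change, with a median of -0.34. Each call was also lost when most single tumours were left out: Tor3a remained called only without RPC 2, RPC 7, RP 1 or RP 3, Cmpk2 only without RPC 1, RPC 7 or RP 3, and Socs3 only without RPC 2, RPC 7 or RP 3.

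Interferons themselves were barely counted. None of the 11 ligands on the list passed the filter, and Ifna1, Ifna2, Ifna4 and Ifna5 had 0 counts in all 14 libraries, where 3 counts are 0.118 to 0.314 CPM. The highest values were 1.68 CPM for Ifnz in RPC 3 (16 counts) and 0.367 CPM for Ifng in RP 7 (6 counts). Of the 11 receptors and signal kinases none was called, with a median log2 fold change of -0.41, or -0.22 without RPC tumours 3, 5 and 6. Il10rb, the shared chain of the type III interferon receptor, was at -1.05 (SE 0.36, edgeR's adjusted p = 0.117), Stat3 at -0.84 (SE 0.30, 0.127) and the interferon-gamma receptor chain Ifngr1 at -0.49 (SE 0.23, 0.230). Ifnar1, a chain of the type I receptor named after its values were seen, was level, at 85.2 to 109 CPM in RPC tumours and 85.9 to 112 CPM in RP tumours. RPC tumours 3, 5 and 6 had 85.2 to 96.1 CPM of Ifnar1.

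Of the 12 adaptors and kinases upstream of interferon all had a negative log2 fold change and none was called. The median was -0.71, or -0.31 without RPC tumours 3, 5 and 6, where 11 of the 12 were negative, and those with the smallest p were Traf3 at -0.39 (SE 0.14, edgeR's adjusted p = 0.121), Myd88 at -0.78 (SE 0.37, 0.242) and Tmem173, which encodes STING, at -1.31 (SE 0.66, 0.266). Tmem173 had 32.7, 2.50 and 0.358 CPM in RPC tumours 3, 5 and 6, 11 to 42.9 CPM in the other RPC tumours and 31.0 to 86.3 CPM in RP tumours. Among 9 negative regulators Socs3 was the one called, and Ptpn6, which encodes a phosphatase, was at -1.71 (SE 0.67, edgeR's adjusted p = 0.163). All 31 further induced genes had negative values, with a median of -1.03, while without RPC tumours 3, 5 and 6 the median was -0.51 and 28 of 31 were negative. After Tor3a and Cmpk2 the smallest p was that of Parp12, at -0.84 (SE 0.26, edgeR's adjusted p = 0.0955).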

How the data were processed

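The 14 RNA-seq libraries, 7 RPC and 7 RP, were grouped by the genotype in the labels. Per the labels' protocols, RNA from TRIzol lysates was selected for poly(A) and made into libraries with a NEBNext Ultra kit. The deposited values are raw counts of reads per gene, not normalized. Per the submitters' processing notes, the authors used bcl2fastq 1.8.2, TopHat2 2.0.12, HTSeq 0.6.1 and the mm9 genome; which annotation and strand setting were used is not given in the sources used here, so reads of antisense partners cannot be told apart. The 5 entries per file that name no gene (15.06% to 20.52% outside features, 8.44% to 11.18% not unique, 0.88% to 1.09% ambiguous) were left out. No 2 libraries of a genotype were repeats (42 pairs compared, chi-square per degree of freedom at least 62.1).

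Differences were tested with edgeR 4.0.16 in R 4.3.3 (filterByExpr, minimum count 10 and minimum total 15; TMM scaling; quasi-likelihood F test; Benjamini-Hochberg adjustment over all tested genes, called at 0.05), which was tested on simulated data. SE is the log2 fold change divided by the root of F, CPM uses TMM-scaled library sizes, and log2 CPM a prior count of 2. The slope on Ctss was fitted in 11 libraries with genotype in the model. DESeq2 1.42.0, median-ratio scaling, no filter, leaving out each library, leaving out RPC tumours 3, 5 and 6, a Ctss term, a macrophage marker mean and a replicate block were alternatives. For the pathway lists, the Ctss term, the block and leaving out each library were added after seeing the data.

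The members and lists were chosen with earlier results of these data known, and 2 list genes were not matched in the files. Fold changes are given for the 12 members with the smallest genotype p, slopes for the 10 with the smallest slope p, both also for Stat2, Irf1, Irf7, Irf9, Isg15, Ifit1, Cxcl9 and Cxcl10, and, per pathway list, for called genes and up to 3 with the smallest p; other values are range ends or were named as stated. Promoters are from RefSeq (GRCm38.p6), matched by symbol for 26 of 33 members; counts were made on mm9, and no coordinates were converted. Cell types are read from lists of markers by summed CPM.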

Additional observations from a re-analysis of the deposited data

Results flagged for a closer look

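In 92 sets of 7 values (a gene within a genotype), 4 had a lowest tumour whose gap to the next, divided by the whole range (both on log2 CPM), was above Dixon's critical value of 0.568. Chance gives about 1 in 20, and 4 of 92 is no more than that. Rsad2 had 0.814 CPM in RPC 5, against 8.04 to 41.9 CPM in the other RPC tumours (ratio 0.57). Ifi35 had 3.67 CPM in RPC 3, against 14.7 to 41.1 CPM in the other RPC tumours (0.57). In RP 3, Cmpk2 had 60.8 CPM, against 102 to 139 CPM in the other RP tumours (0.62), and Socs3 had 42.9 CPM, against 115 to 203 CPM (0.63). RP 3 also had the lowest median level of the 33 members among RP tumours, at -0.61.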

How the results depend on the processing

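Median-ratio scaling and no filter left 0 members called between genotypes and 0 on the Ctss slope. DESeq2 called 3 members and 6 pathway genes lower between genotypes, where 5.01% of genes were called lower. On the slope it called 9 members positive, where 2.09% of genes were. Without RPC tumours 3, 5 and 6, and with the Ctss term, edgeR called 0 pathway genes. Leaving out each library gave 0 to 1 member called between genotypes (Stat2 without RP 3, at -0.86, edgeR's adjusted p = 0.045, where 6% of genes were called). On the slope it gave 0 to 2 (Bst2 and Sp100 without RPC 7, edgeR's adjusted p = 0.047 and 0.0423, where 0.205% of genes were called). Of the pathway genes it gave 0 to 5 called between genotypes (5 without RPC 7, where 5.12% of genes were called). Over all 14 libraries 23 members were called on the slope, where 8.31% of genes were called positive. The median log2 fold change of members, -0.98, became -0.30 without RPC tumours 3, 5 and 6 and -0.21 with the Ctss term, and ran from -1.61 (without RPC 2) to -0.67 (without RP 2) with each library left out. Ifit1 turned to 0.01 without the 3 tumours and 0.09 with the Ctss term, and Isg15 to 0.03 and 0.07; the cause was not tested. Tumour numbers are shared between genotypes, but not every pair of same-numbered tumours deviated together (correlations -0.054 to 0.322, with 3 of 7 RPC tumours closest to their own number), so the numbers were not taken as pairs. With the replicate block 0 members and 2 pathway genes were called, 74 genes in all against 327, and the members' median was -1.87. Depth limits Zbp1, Oas1a and Cxcl9 most, at 3 counts or fewer in RPC tumours 3, 5 and 6.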
